A study of Mus musculus with 6 samples.

Results

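A set of 10 genes that mark the osteoblast and adipocyte fates of bone marrow stroma was followed by RNA-seq in MS-5 cells, a line of mouse stroma that supports blood progenitors in culture, grown alone or with human AML cells. The genes were chosen by name: Runx2, Sp7, Alpl, Bglap and Spp1 for the osteoblast side, Pparg, Cebpb, Lpl and Plin2 for the adipocyte side, and Lepr, which marks perivascular stroma in the marrow. They are 10 of the 35968 genes with a transcript in the deposited files, and their transcripts were summed by GENCODE M21 name in all 6 libraries. The list is by name and has no threshold on a measured value.

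Marrow stromal cells can give rise to osteoblasts and to adipocytes. Runx2 and then Sp7 are needed to form osteoblasts, which make alkaline phosphatase (Alpl) and the bone matrix proteins osteopontin (Spp1) and osteocalcin (Bglap). On the other side, C/EBP beta (Cebpb) and C/EBP delta (Cebpd) act early and come before Pparg and Cebpa, the master regulators of fat cells, which in turn maintain lipid genes such as Lpl, Fabp4 and Plin1. Stroma that carries the leptin receptor is a main source of the niche factors CXCL12 and SCF (Kitl) in adult marrow.

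The MS-5 only group held 3 libraries (MO1, MO2 and MO3) of MS-5 cells grown without other cells. The co-culture group held 3 libraries (MC1, MC2 and MC3) of MS-5 cells recovered after 24 hr with SKM-1 cells, a human AML line, plated at 750000 AML cells per ml and 4 AML cells for each stromal cell on a confluent layer. All libraries came from 1 cell line in the same RPMI medium with serum, the labels name no agent that induces bone or fat, and no source used here says that the libraries of a group came from separate cultures, so that p-values measure only the spread between these libraries. RNA was taken after the stromal layer had been parted from SKM-1 cells.

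Total estimated counts ranged from 23978881 to 35694987 per library. MO2 and MC3 stood apart from the other 4 libraries, with 5.89% to 6.03% of their counts from mitochondrial genes against 10.53% to 13.13%, and no label names a batch for them. The stromal identity was checked on 16 markers, of which 13 passed the filter on low counts: Cxcl12, Vim, Pdgfra, Pdgfrb and Prrx1 were high in every library, Lepr was close to 0, and Nt5e and Grem1 had at most 6 counts in any library. Thy1 was also low, with 10 to 146 counts, and Nes had at most 11. Summed CPM (counts scaled to the library total, normalised by edgeR's TMM method) of 16 leukocyte markers ran from 33.0 to 52.6 in MS-5 only and from 75.8 to 296 in co-culture, with MC2 the highest. The index held mouse transcripts only. Of the markers, Tyrobp and Fcer1g had at most 6 counts in any library, and of 9 muscle markers Myod1, Myf5 and Myog were at 0 in all 6, while Acta2, the smooth muscle actin that activated fibroblasts also make, ran from 227 to 1954 CPM, Des from 55.0 to 71.9 and Tagln from 10.2 to 72.0.

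Sequence limits what can be said about osteocalcin, which in the mouse is encoded by Bglap and its neighbours Bglap2 and Bglap3 on chromosome 3. Of the 410 stretches of 31 bases in the coding transcript of Bglap, 330 (80.5%) also occur in that of Bglap2 and 156 (38.0%) in that of Bglap3. The first 60 coding bases are shown, 5′ to 3′ from GENCODE M21 transcripts, since they show how alike the genes are. Capitals mark the positions at which the 3 sequences are not all the same.
Bglap: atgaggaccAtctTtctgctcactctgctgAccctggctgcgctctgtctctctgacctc
Bglap2: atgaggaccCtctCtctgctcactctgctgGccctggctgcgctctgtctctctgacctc
Bglap3: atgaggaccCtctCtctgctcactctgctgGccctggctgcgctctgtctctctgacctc
In this window Bglap2 and Bglap3 were the same. Over all 285 coding bases, Bglap differed from Bglap2 at 4 positions and from Bglap3 at 13, and the split of reads between Bglap and Bglap2, which share most of their transcript sequence, is uncertain.

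Promoter sequences of 8 members were found in the RefSeq table (GRCm38.p6). The 250 bases before each listed start were searched on both strands for AACCACA, which RUNX factors bind, TTGCNNCAA for C/EBP, GGTCANAGG for the PPAR repeat, ACGTG for the hypoxia response core, and CACGTG, an E-box that contains that core. Of all 32851 windows of this length, 4.40% held the RUNX letters, 1.74% those for C/EBP, 1.43% those for PPAR, 16.6% the hypoxia core and 6.02% the E-box. Of the members' windows, only the first of Spp1 and that of Runx2 held any of these letters, with 1 RUNX match each, shown in capitals. The Spp1 window, chr5:104434861-104435110 on the plus strand, belongs to the member with the highest level.
Spp1: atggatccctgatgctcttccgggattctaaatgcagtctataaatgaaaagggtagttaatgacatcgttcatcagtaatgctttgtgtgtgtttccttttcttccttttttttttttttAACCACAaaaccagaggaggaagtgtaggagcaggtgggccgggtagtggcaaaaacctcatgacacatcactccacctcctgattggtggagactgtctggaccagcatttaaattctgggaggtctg
In Runx2 the match lies near its distal start, at chr17:44814692-44814718 on the minus strand, of which 27 bases are given.
Runx2: tgaggtcacaAACCACAtgattctgtc
The window of Cebpb, chr2:167688665-167688914 on the plus strand, is shown because Cebpb was the member that passed the test in co-culture. It held none of the 5 motifs, and 81.6% of its bases were G or C.
Cebpb: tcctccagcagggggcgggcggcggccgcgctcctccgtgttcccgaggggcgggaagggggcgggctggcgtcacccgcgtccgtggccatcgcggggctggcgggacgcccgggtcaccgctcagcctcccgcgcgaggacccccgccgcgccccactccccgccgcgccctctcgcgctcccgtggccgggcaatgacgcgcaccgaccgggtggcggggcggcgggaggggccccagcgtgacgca
A match describes letters in these windows and is not a measurement of binding.

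In MS-5 cells cultured alone, the matrix gene Spp1 and the lipid genes Lpl and Plin2 were the highest of the 10, while Sp7, Lepr and Bglap were at or near 0. Levels between genes were compared as TPM, a relative transcript abundance that is corrected for transcript length. The mean in MS-5 only was 3340 ± 1319 for Spp1 (SD, n = 3), 559 ± 407 for Lpl and 137 ± 22.4 for Plin2. Spp1 was thus above 99.8% of the 20537 genes with a count in these libraries, and Lpl above 98.9%. Pparg followed with 48.5 ± 5.92, Cebpb with 25.7 ± 6.26, Runx2 with 21.5 ± 10.9 and Alpl with 12.9 ± 4.47. The ranges of Spp1, Lpl, Plin2, Pparg and Cebpb did not touch, whereas those of Cebpb and Runx2, and of Runx2 and Alpl, overlapped and set no order. These levels are sums over all transcripts of a gene. A transcript annotated for nonsense-mediated decay took 54.9%, 45.8% and 54.0% of the TPM of Lpl in MO1, MO2 and MO3. The place of Lpl above Plin2 is therefore that of the sums and not of coding transcripts alone. Sp7 was at 0.102 ± 0.0841, Lepr at 0.0966 ± 0.156, and Bglap was listed at 0. Without MO2 the means were 328 for Lpl, 0.0557 for Sp7 and 0.00659 for Lepr, and that of Lepr was 0.145 without MO3. Runx2 was therefore measured well above the factor that acts after it, Sp7, in every MS-5 only library.

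**Figure D1:**
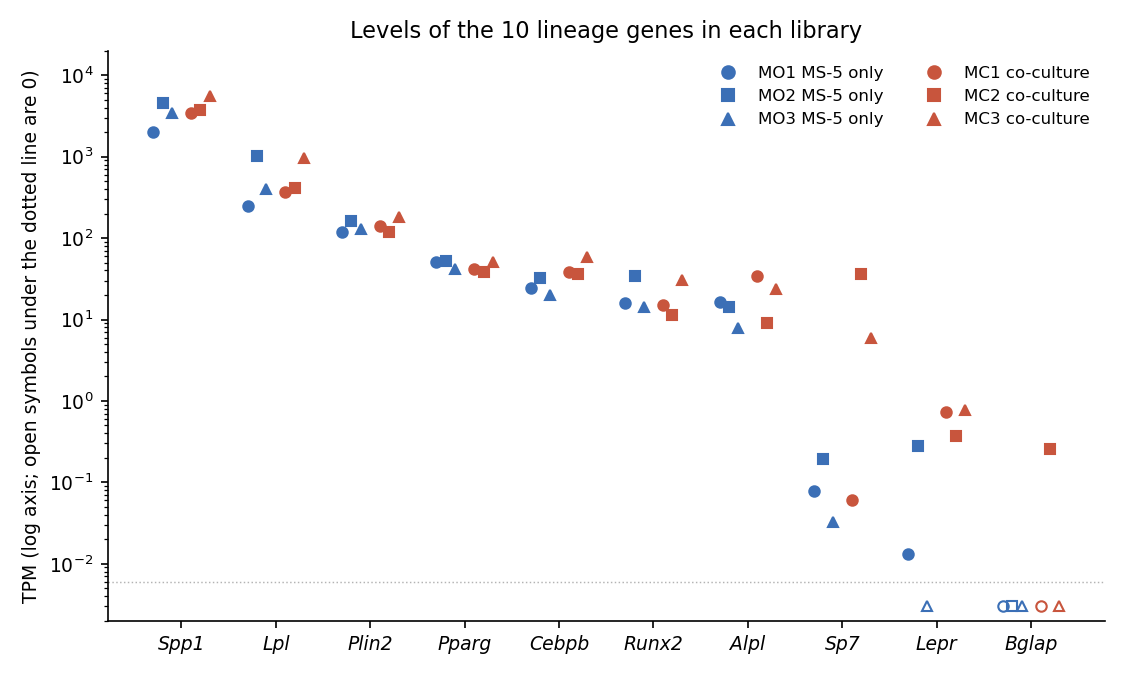
TPM on a log axis for the 10 genes in each of the 6 libraries, ordered by the mean of MS-5 only, with open symbols for a value of 0. Spp1 lies at 1983 or above in every library and Bglap has a value above 0 in 1 library, while Sp7 rises in MC2 and MC3 through 1 short transcript.

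Of the 13221 genes tested, 579 (4.38%) passed the threshold of an adjusted p-value under 0.1 in edgeR's quasi-likelihood test of co-culture against MS-5 only, 491 (3.71%) of them higher in co-culture and 88 lower. The split was 1835 higher and 2164 lower when MO2 and MC3 had a term of their own, and 443 higher and 1 lower with the replicate number as a block. Of the 10 members, 8 could be tested, and 1 of these, Cebpb, passed, in the higher direction. The log2 fold change was above 0 in 6 of the 8 and below 0 in 2, with a median of 0.23 beside -0.02 over all genes tested. The groups did not overlap for 2 of the 8, Cebpb and Lepr, where 21.2% of all genes tested had groups that did not overlap. Lepr, with 1, 14 and 0 counts in MO1, MO2 and MO3, passed the filter on low counts only through co-culture. Its direction was thus set in part by the filter, and it is counted in these values. In RNA from a whole culture, fewer cells of a type and less RNA per cell cannot be told apart.

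On the osteoblast side, no member passed the test. Runx2, the transcription factor that starts the osteoblast programme (chr17:44495987-44814797), had a CPM of 62.1, 81.7 and 52.6 in MO1, MO2 and MO3, and of 55.5, 46.1 and 70.5 in MC1, MC2 and MC3. The groups overlapped, and in each the highest value was that of the library that stands apart, MO2 or MC3. The log2 fold change was -0.19 (SE 0.23, 95% interval -0.73 to 0.35, adjusted p = 0.831 by edgeR), and it was -0.0 without MO2 and -0.37 without MC3.

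Runx2 is transcribed from a distal promoter, which gives the bone-related form of 528 codons, and from a proximal one, which gives a form of 514 codons. The 7 transcripts that start at the distal promoter took 25.4%, 38.4% and 38.2% of the estimated counts of Runx2 in MO1, MO2 and MO3, and 36.0%, 46.1% and 40.5% in MC1, MC2 and MC3. The proximal start was thus the larger source in every library. The mean share was 34.0% ± 7.48 in MS-5 only and 40.8% ± 5.06 in co-culture (SD, n = 3), a difference of 6.85 percentage points with p = 0.4 in an exact two-sided permutation test, which cannot give a value below 0.1 with 3 against 3.

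Sp7 (osterix, chr15:102356606-102367182), which acts after Runx2, had 5, 10 and 2 counts in MO1, MO2 and MO3 and 5, 21 and 7 in MC1, MC2 and MC3, and did not pass the filter on low counts. Its TPM was 36.4 in MC2 and 5.91 in MC3 but at most 0.196 in the other libraries. The high values came from a processed transcript of 117 bases, with 14.9 estimated counts in MC2 and 2.04 in MC3 over an effective length of about 17 bases. Its coding transcripts together had no more than 10 counts in any library, so that the TPM of Sp7 in co-culture rests on a few reads of 1 short non-coding transcript.

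Alpl (chr4:137741733-137796384), the alkaline phosphatase that frees phosphate for mineral, varied more between libraries of a group than between the groups. Its CPM was 23.4, 10.1 and 12.2 in MO1, MO2 and MO3 and 38.5, 15.5 and 18.5 in MC1, MC2 and MC3. MO1 lay above 2 of the 3 co-culture libraries. Its log2 fold change was 0.66 (SE 0.45, 95% interval -0.42 to 1.75, adjusted p = 0.610 by edgeR), and it was 0.14 without MC1 and 1.13 without MO1.

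Spp1 (chr5:104435118-104441050), the most abundant member, encodes the secreted matrix protein osteopontin. Its CPM was 2261, 3394 and 4003 in MO1, MO2 and MO3 and 3859, 4503 and 4050 in MC1, MC2 and MC3. Co-culture values lay in the upper part of the MS-5 only range or above it, but MO3 exceeded MC1. Its log2 fold change in co-culture was 0.36 (SE 0.33, 95% interval -0.42 to 1.14, adjusted p = 0.735 by edgeR). A single coding transcript took between 97.5% and 98.8% of the estimated counts of the gene in every library.

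Osteocalcin reads were few in every library, and almost none were assigned to Bglap itself. Bglap (chr3:88383501-88384464) had 0 counts in 5 libraries and 1 in MC2, and a count of 0 allows a CPM of up to 0.136 in the shallowest library, by counting error alone. Bglap2 had 2, 5 and 6 counts in MO1, MO2 and MO3 and 5, 6 and 14 in MC1, MC2 and MC3, and Bglap3 had 2, 14 and 4 and then 13, 6 and 19. Summed, the 3 genes had 4, 19 and 10 counts in MO1, MO2 and MO3, against 18, 13 and 33 in MC1, MC2 and MC3. Because the split between Bglap and Bglap2 is uncertain, the sum is given too, and its ranges overlapped between the groups.

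A wider list of 32 osteoblast regulators, matrix and mineral genes, which includes these members, had 16 genes that could be tested. None passed the threshold in either direction, where 4.38% of all genes tested did, and 1 had an unadjusted p-value under 0.05, where 14.3% of all genes tested did. DESeq2's Wald test also called none of them, and 1268 of all 13221 genes tested. The median log2 fold change was -0.01, with 7 genes above 0 and 9 below. The collagen gene Col1a1 was abundant, at 2870, 1568 and 2181 CPM in MO1, MO2 and MO3 and 3799, 2752 and 1767 in MC1, MC2 and MC3, and overlapped between the groups (log2 fold change 0.33, SE 0.39, adjusted p = 0.828 by edgeR). Its log2 fold change was 0.02 without MC1 and 0.58 without MO1. Dlx5, a regulator of osteoblast genes, Ibsp, which encodes bone sialoprotein, and Sost, the osteocyte inhibitor of WNT signals, had 0 counts in all 6 libraries, and Dmp1, a matrix gene of osteocytes, had at most 4. Of the genes that act on mineral, Mepe was at 0 in all 6 libraries and Phex was under 1 CPM in each. Phospho1, a phosphatase of mineralisation, was between 17.7 and 28.1 CPM over the 6 libraries, without passing the test. Enpp1, which makes the mineral inhibitor pyrophosphate, was the gene with an unadjusted p-value under 0.05. Its CPM was 6.79, 15.3 and 15.7 in MO1, MO2 and MO3 and 19.3, 22.3 and 25.1 in MC1, MC2 and MC3, with groups that did not overlap (log2 fold change 0.82, SE 0.33, adjusted p = 0.333 by edgeR). Of the 32 genes, 12 had fewer than 10 counts in every library.

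**Figure D2:**
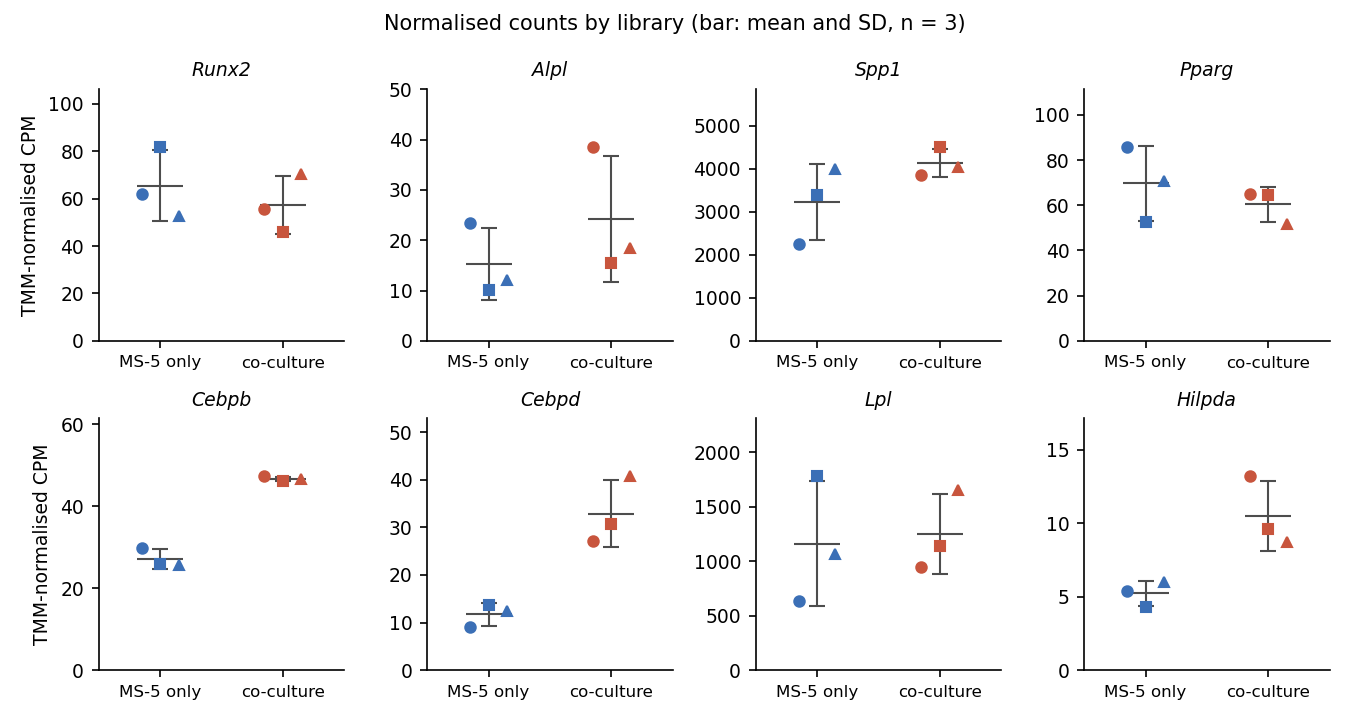
TMM-normalised CPM of 6 members, Cebpd and Hilpda, with a point for each library (circle, square and triangle for replicates 1, 2 and 3) and a bar for the mean with its SD (n = 3). The groups do not overlap for Cebpb, Cebpd and Hilpda, and they overlap for Runx2, Alpl, Spp1, Pparg and Lpl.

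On the adipocyte side, the early regulator Cebpb rose in co-culture, while Pparg, Lpl and Plin2 did not pass the test. Cebpb (chr2:167688915-167690418) has a single exon and 1 transcript. Its CPM was 29.9, 25.8 and 25.6 in MO1, MO2 and MO3 and 47.3, 46.1 and 46.6 in MC1, MC2 and MC3. All co-culture values exceeded all MS-5 only values, and the 3 co-culture values were close together. The change was 1.72-fold, a log2 fold change of 0.79 (SE 0.12, 95% interval 0.49 to 1.08, adjusted p = 0.0734 by edgeR).

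The 2 libraries that stand apart gave a similar size, with a log2 ratio of 0.85 for MC3 over MO2 and of 0.75 for the mean of MC1 and MC2 over that of MO1 and MO3. With a covariate for MO2 and MC3, Cebpb was the 1 member called, where 30.2% of all genes tested were called. Cebpb did not pass with the replicate number as a block (adjusted p = 0.17) or in limma on log2(TPM + 0.5) (adjusted p = 0.358). It also fell short of the threshold when any library other than MC3 was left out, with adjusted p from 0.128 to 0.3, although the log2 fold change stayed between 0.74 and 0.89.

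Of 12 leukocyte markers tested 7 rose in co-culture, where 3.71% of all genes tested did, and they rose unevenly between libraries. The log2 fold changes of the other 5 were 4.74 for Mpo, 0.87 for Hcls1, 0.60 for Itgb2, -0.11 for Cd53 and -0.37 for Lyz2. Markers such as Ptprc, with 2, 10 and 1 counts in MO1, MO2 and MO3, passed the filter on low counts only through co-culture. The share of markers that rose was thus set in part by the filter. Relative to the mean of MS-5 only, Ptprc (CD45, a surface protein of blood cells) was 23.3-fold, 115-fold and 35.8-fold as high in MC1, MC2 and MC3, and Spi1, a myeloid transcription factor, was 25.0-fold, 169-fold and 30.8-fold as high. Cebpb was 1.75-fold, 1.70-fold and 1.72-fold as high in the same libraries. The part of RNA from other cells in the change of Cebpb was not tested.

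**Figure D3:**
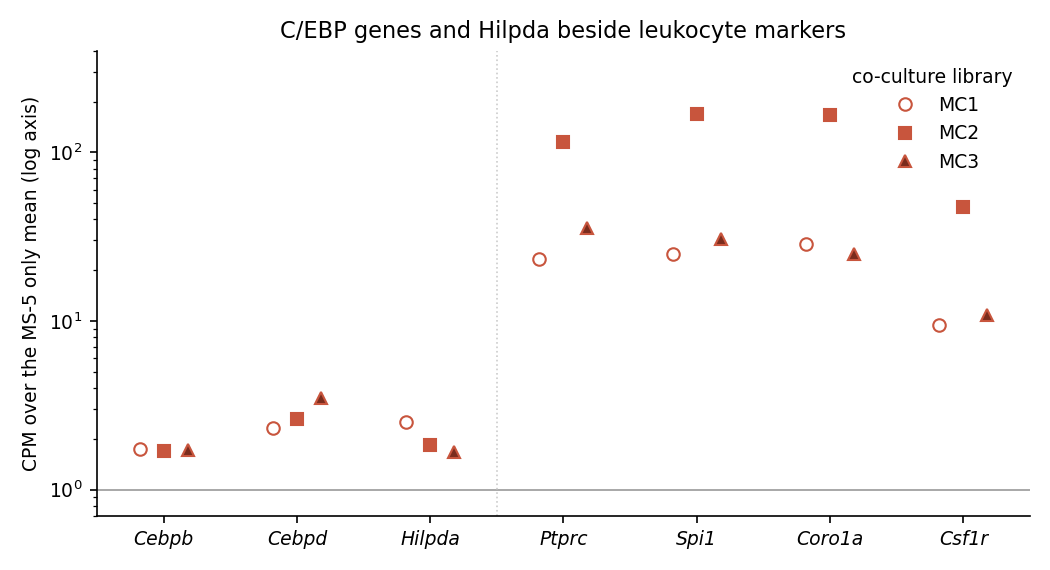
CPM of each co-culture library over the mean of MS-5 only, on a log axis, for Cebpb, Cebpd and Hilpda (left) and 4 leukocyte markers (right). The markers are highest in MC2, up to 169-fold for Spi1, while Cebpb lies at 1.70 to 1.75 in all 3 libraries.

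Pparg (chr6:115360951-115490399), the nuclear receptor that directs fat cell formation, had a CPM of 85.7, 52.6 and 70.9 in MO1, MO2 and MO3 and of 65.0, 64.6 and 51.5 in MC1, MC2 and MC3. The groups overlapped, with the lowest value of each group in MO2 and MC3. The log2 fold change was -0.21 (SE 0.21, 95% interval -0.71 to 0.29, adjusted p = 0.775 by edgeR), and it was -0.01 without MO1 and -0.38 without MO2.

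Pparg has several promoters. Its main transcripts from the first and the second start have 475 codons each, while the transcript from the third start, further downstream, encodes the longer form of 505 codons, PPAR gamma 2, which is typical of fat cells. The stretches before the second start (chr6:115362099-115362291) and the third (chr6:115421816-115422065), on the plus strand, are shown because the results separate these starts.
Pparg, the second start: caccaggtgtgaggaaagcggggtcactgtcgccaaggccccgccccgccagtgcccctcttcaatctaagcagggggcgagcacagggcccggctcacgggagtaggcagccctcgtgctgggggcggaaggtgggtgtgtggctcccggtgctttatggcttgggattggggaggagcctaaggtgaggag
Pparg, the third start: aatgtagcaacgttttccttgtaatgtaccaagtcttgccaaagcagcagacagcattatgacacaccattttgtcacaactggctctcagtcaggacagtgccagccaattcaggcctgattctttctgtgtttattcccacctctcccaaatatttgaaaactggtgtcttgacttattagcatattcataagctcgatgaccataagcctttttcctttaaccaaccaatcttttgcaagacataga
The first stretch was 66.8% G or C and the second 40.8%.

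The form typical of fat cells was a small part of Pparg in every library. The transcript from the third start had 40, 57 and 36 estimated counts in MO1, MO2 and MO3 and 37, 0 and 22 in MC1, MC2 and MC3, or 1.88%, 3.44% and 2.29% and then 1.75%, 0% and 1.25% of the counts of the gene. All co-culture shares lay below all MS-5 only shares, with means of 2.54% ± 0.805 and 0.999% ± 0.901 (SD, n = 3) and p = 0.1 in an exact two-sided permutation test, the smallest value the design allows. The transcript from the second start took 42.7%, 49.4% and 45.1% in MS-5 only, against 47.9%, 64.8% and 65.2% in co-culture. For the first start the shares were 55.3%, 45.6% and 52.2% in MS-5 only, against 49.0%, 34.8% and 32.8%. These shares overlapped between the groups (exact p = 0.2 for each, two-sided permutation test). Kallisto divides reads between transcripts that share most of their exons, so that the shares are estimates.

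**Figure D4:**
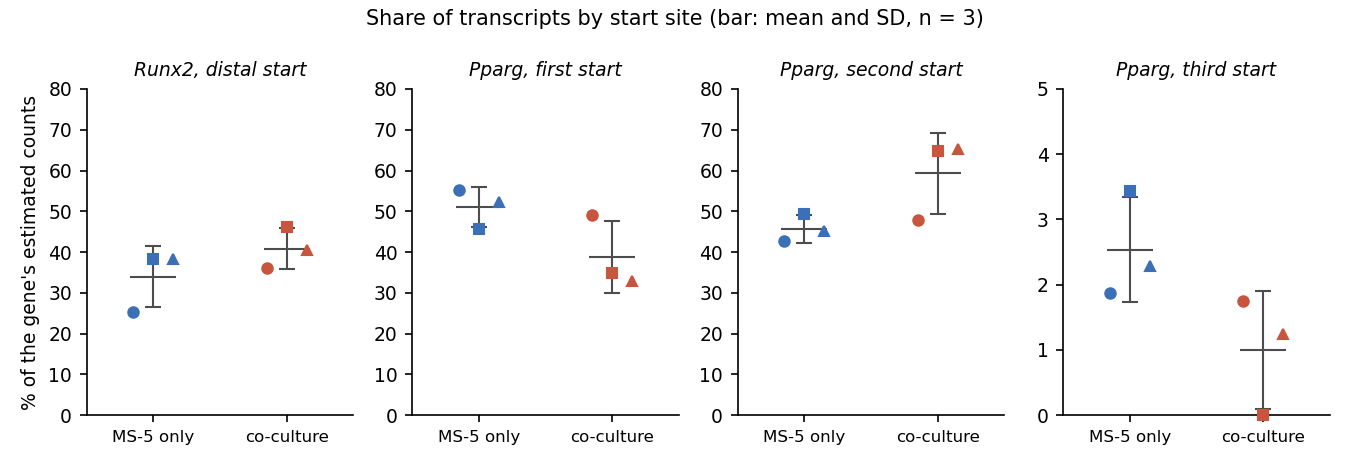
Percentage of the estimated counts of Runx2 from its distal start and of Pparg from 3 transcripts with separate starts, by library (circle, square and triangle for replicates 1, 2 and 3), with the mean and SD (n = 3). The third start of Pparg, on its own axis from 0 to 5, stays at or below 3.44% in all 6 libraries, and the groups overlap in the other panels.

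Lpl (chr8:68880491-68907448), the lipoprotein lipase that frees fatty acids from circulating fat and an early target of Pparg, followed the libraries more than the groups. Its CPM was 637, 1778 and 1067 in MO1, MO2 and MO3 and 951, 1140 and 1655 in MC1, MC2 and MC3. MO2 was 2.09 times the mean of MO1 and MO3, and MC3 was 1.58 times that of MC1 and MC2, so that the 2 libraries that stand apart were the highest of the 6. The log2 fold change was 0.11 (SE 0.42, 95% interval -0.91 to 1.12, adjusted p = 0.975 by edgeR), and it was -0.16 without MO1 and -0.15 without MC3.

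Plin2 (chr4:86648386-86670060), which coats lipid droplets in most cell types, had a CPM of 163, 142 and 178 in MO1, MO2 and MO3 and of 191, 172 and 152 in MC1, MC2 and MC3. The groups overlapped, and the log2 fold change was 0.09 (SE 0.15, 95% interval -0.28 to 0.46, adjusted p = 0.899 by edgeR).

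Lepr (chr4:101717404-101815352), the leptin receptor, was measured on few reads. It had 1, 14 and 0 counts in MO1, MO2 and MO3 and 16, 20 and 18 in MC1, MC2 and MC3. All 3 co-culture counts were higher, narrowly so against MO2. The log2 fold change of 1.79 had an SE of 1.05 and a 95% interval that contained 0 (adjusted p = 0.533 by edgeR). It was 4.59 without MO2 and 1.29 without MO3. The transcript of 1162 codons, which gives the long form that signals, had 0 counts in all 6 libraries, and the reads were assigned mainly to the short forms of 892 and 894 codons.

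Among 35 adipocyte regulators and lipid genes, which include Pparg, Cebpb, Lpl and Plin2, 27 could be tested and 2 passed, both higher in co-culture, where 3.71% of all genes tested were higher: Cebpb and Cebpd. The median log2 fold change of the list was 0.11, with 18 genes above 0 and 9 below. An unadjusted p-value under 0.05 was found for 6 of the 27, beside 14.3% of all genes tested. They were Cebpb, Cebpd, Hilpda, Cd36 and Dgat2, higher in co-culture, and Adipoq, lower. Cebpd (chr16:15887286-15891031), the partner of Cebpb in the early phase of fat cell formation and a gene also known to respond to inflammatory signals, had a CPM of 8.98, 13.7 and 12.5 in MO1, MO2 and MO3 and of 27.2, 30.6 and 40.7 in MC1, MC2 and MC3. No value of MS-5 only reached the lowest of co-culture. The change was 2.80-fold, a log2 fold change of 1.49 (SE 0.23, 95% interval 0.93 to 2.04, adjusted p = 0.0734 by edgeR), and the log2 ratio was 1.57 for MC3 over MO2 and 1.42 for the other 4 libraries. Relative to the mean of MS-5 only, Cebpd was 2.32-fold, 2.61-fold and 3.47-fold as high in MC1, MC2 and MC3, and the part of RNA from other cells was not tested. Cebpd fell short of the threshold in the fits without MO1, MO2 or MO3, with adjusted p from 0.149 to 0.3 and a log2 fold change from 1.36 to 1.61, and also with library size only (adjusted p = 0.105) and in limma on log2(TPM + 0.5) (adjusted p = 0.329).

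The later regulator Cebpa, which sustains the fat cell state with Pparg, had a CPM of 59.9, 57.6 and 86.4 in MO1, MO2 and MO3 and of 71.1, 79.5 and 59.7 in MC1, MC2 and MC3 (log2 fold change 0.04, SE 0.20, adjusted p = 0.979 by edgeR). Cebpa thus overlapped between the groups where Cebpb and Cebpd did not, and the difference between these genes was not tested. Of the lipid genes, Fabp4, a fatty acid carrier of fat cells, was at 56.7, 37.9 and 60.1 and then 61.1, 64.7 and 48.8 CPM, with groups that overlapped (adjusted p = 0.839 by edgeR). Plin1, the lipid droplet coat of mature fat cells, was low at 1.60, 2.86 and 2.81 and then 2.11, 1.87 and 1.66 CPM (adjusted p = 0.748 by edgeR).

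Hilpda, a lipid droplet protein that inhibits lipolysis and is known to respond to low oxygen, lay just outside the threshold. Its CPM was 5.39, 4.30 and 5.98 in MO1, MO2 and MO3 and 13.2, 9.60 and 8.70 in MC1, MC2 and MC3, with groups that did not overlap (log2 fold change 1.01, SE 0.24, adjusted p = 0.102 by edgeR). In 4 of 17 alternatives it passed, with DESeq2 size factors (adjusted p = 0.0957), with library size only (0.0904), in DESeq2's Wald test (0.00508) and with the covariate for MO2 and MC3 (0.0158). In the other 13 the adjusted p ran up to 0.304, and it passed in 0 of the 6 fits that left out a library. Angptl4, a secreted inhibitor of lipoprotein lipase that is also induced by Pparg, was at 54.0, 54.1 and 51.2 and then 61.6, 48.0 and 69.5 CPM, with MC2 below all MS-5 only libraries (adjusted p = 0.762 by edgeR). Adipoq, which encodes the fat cell hormone adiponectin, had 17, 18 and 15 counts in MO1, MO2 and MO3 and 12, 4 and 7 in MC1, MC2 and MC3. All 3 co-culture counts of Adipoq were lower than all MS-5 only counts, but its log2 fold change of -1.36 (SE 0.47) did not pass (adjusted p = 0.241 by edgeR). It passed with the covariate for MO2 and MC3 (adjusted p = 0.0931), a fit that called 30.2% of all genes tested.

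**Figure D5:**
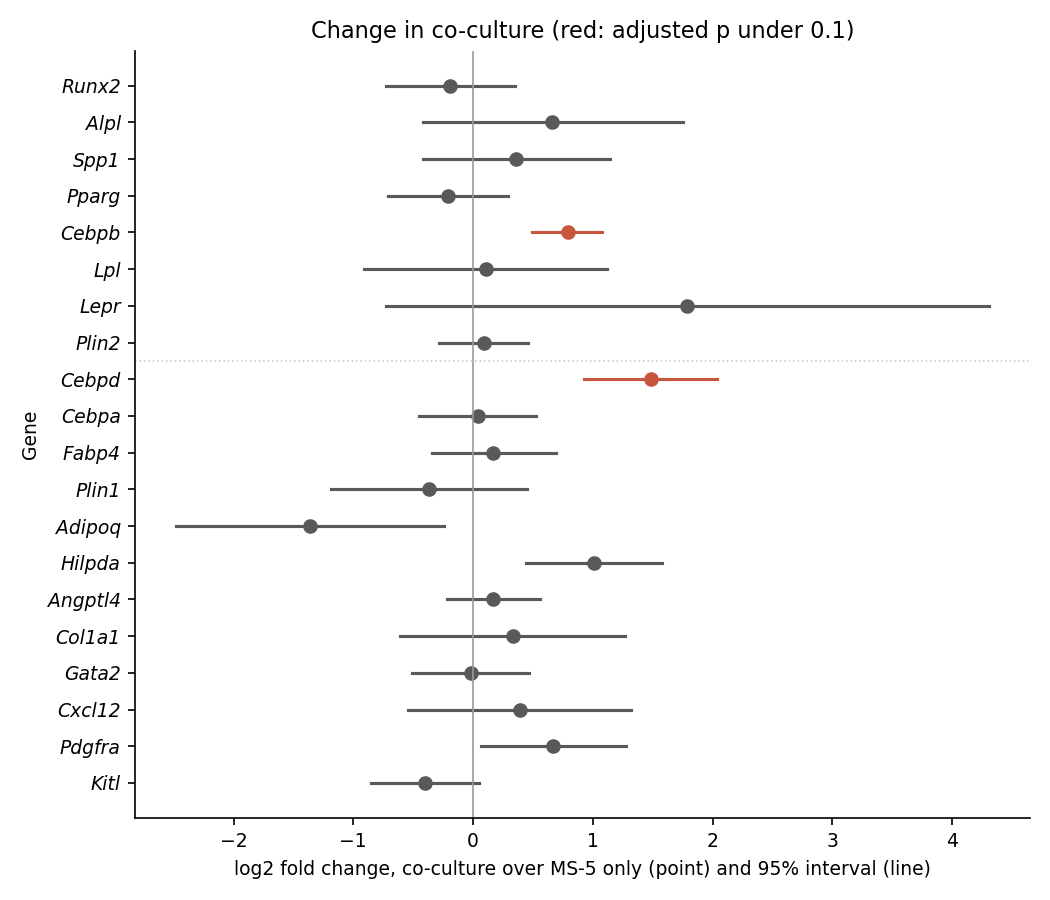
Log2 fold change of co-culture over MS-5 only (points) with its 95% interval (lines) for the 8 members tested, above the dotted line, and 12 other named genes. Cebpb and Cebpd, in red, have an adjusted p-value under 0.1, at 0.79 and 1.49, and the interval of Lepr is the widest of the members.

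Genes known to restrain either fate gave no call, where 4.38% of all genes tested passed. Of 19 such genes 10 could be tested, with a median log2 fold change of 0.04 and 1 unadjusted p-value under 0.05, beside 14.3% of all genes tested. DESeq2's Wald test called 1 of them, and 1268 of all 13221 genes tested. Gata2, which holds back the start of fat cell formation, was at 5.99, 5.76 and 4.62 CPM in MO1, MO2 and MO3 and at 5.16, 5.07 and 5.97 in MC1, MC2 and MC3 (log2 fold change -0.02, SE 0.20, adjusted p = 0.993 by edgeR). Dlk1, the preadipocyte surface protein that inhibits differentiation, and Sox9, the regulator of the cartilage fate, had at most 2 counts in any library.

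Of the 16 stromal markers, 13 were tested and none passed, where 4.38% of all genes tested did. They had 2 unadjusted p-values under 0.05, beside 14.3% of all genes tested, and a median log2 fold change of 0.17. DESeq2's Wald test called none of them, and 1268 of all 13221 genes tested. Cxcl12, the chemokine that holds blood stem cells in the marrow, was at 627, 1504 and 1464 CPM in MO1, MO2 and MO3 and at 1243, 1571 and 1886 in MC1, MC2 and MC3 (adjusted p = 0.776 by edgeR). MC1 was below MO2 and MO3, so that the groups overlapped. Pdgfra, a receptor of mesenchymal progenitors, was at 120, 203 and 142 CPM and then 226, 209 and 306 CPM, with groups that did not overlap (log2 fold change 0.67, SE 0.25, adjusted p = 0.290 by edgeR, and 0.0124 with the covariate for MO2 and MC3). The fit with this covariate called 30.2% of all genes tested. Kitl was at 48.2, 68.5 and 66.0 CPM and then 39.2, 47.0 and 52.4 CPM (log2 fold change -0.40, SE 0.19, adjusted p = 0.418 by edgeR, and 0.0859 with the covariate). As a niche factor it was present in both groups, as was Cxcl12, while Lepr, the marker of the marrow cells that make them, was close to 0.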

How the data were processed

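RNA-seq of 6 libraries was analysed, 3 of MS-5 cells cultured alone and 3 in co-culture, grouped by their labels. The authors quantified reads with Kallisto (0.43.0) on a mouse cDNA index, after FastQC (0.11.7), and deposited estimated counts per transcript, not normalized between libraries, and TPM values, corrected for effective length. Of 118489 transcripts, 116728 matched GENCODE M21 (GRCm38) and the other 1761 were left out. Estimated counts were summed per gene, rounded, normalized by TMM and filtered with filterByExpr, which left 13221 genes. Groups were compared with edgeR 4.0.16 (R 4.3.3, quasi-likelihood test, Benjamini-Hochberg over all genes tested, threshold 0.1). The standard error is the log2 fold change over the square root of F. Scripts were tested on simulated data. Total counts from 23978881 to 35694987 leave genes with few counts imprecise.

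Members and gene lists were chosen with earlier results of these data known. Genes named are the 10 members, every gene of the osteoblast, adipocyte, restraint and stromal lists past the threshold (up to 10 each) and a set named regardless of value. Ranges of marker levels, and Vim, Pdgfrb, Prrx1, Nt5e, Grem1, Thy1, Nes, Tyrobp, Fcer1g, Myod1, Myf5, Myog, Acta2, Des, Tagln, Phospho1, Enpp1, Cd36, Dgat2, Hes1, Mepe, Phex, Mpo, Hcls1, Itgb2, Lyz2, Cd53 and Spi1, come from the gene and marker lists and were picked after their values were seen. Summed over their lists, chondrocyte markers ran from 6.91 to 16.0 CPM, muscle markers from 299 to 2056 CPM and endothelial markers from 1.63 to 9.18 CPM.

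Alternatives were DESeq2 size factors, library size alone, DESeq2's Wald test (1.42.0), limma (3.58.1) on log2(TPM + 0.5) and with pseudocounts of 0.1 and 1, an effective length offset, no filter or one of 5 counts in 3 libraries, thresholds of 0.05 and 0.01, leaving out each library, a term that sets MO2 and MC3 against the others, and replicate numbers as a block. Sleuth (0.30.0), which the authors used, was not used here. Promoters are from a RefSeq table. Windows of Sp7 and Lpl were not analysed here.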

Additional observations from a re-analysis of the deposited data

How the results depend on the processing

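Of 357 log2 fold changes of 21 named genes under an alternative, 14 changed sign, in 4 genes whose values lay near 0. For Gata2 the sign changed in limma on log2 TPM with each pseudocount (0.04) and with an effective length offset (0.09). With 1 library left out at a time, the log2 fold change ran from -0.16 to 0.55 for Lpl, from 0.14 to 1.13 for Alpl, from 1.29 to 4.59 for Lepr, from -0.07 to 0.25 for Cebpa, from -0.01 to 0.29 for Fabp4 and from -0.13 to 0.08 for Gata2. The count of called members, 1 in the reported fit, was 0 in limma with each pseudocount, with the replicate number as a block, and at thresholds of 0.05 and 0.01, and it ran from 0 to 1 when a library was left out. Of the adipocyte genes, 2 in the reported fit, 0 were called in limma or at either stricter threshold, 1 with the replicate block (Cebpd), 3 with DESeq2 size factors or its Wald test (Hilpda added), 2 with library size only (Cebpb and Hilpda), 6 with the covariate for MO2 and MC3, and 0 to 3 when a library was left out. The covariate also gave 2 calls among osteoblast genes, 2 among restraint genes and 4 among stromal markers, where the reported fit gave none, but it called 30.2% of all genes tested, and DESeq2's Wald test gave 1 among restraint genes, Hes1. Over all genes, the 579 calls became 1268 in DESeq2's Wald test, 356 and 224 in limma with pseudocounts of 0.5 and 1, 3999 with the covariate, 2 at a threshold of 0.05 and 0 at 0.01. The unadjusted p-value in edgeR was under 0.05 for 1885 genes. The calls at an adjusted p-value under 0.1 ran from 0, in each of the fits without 1 MS-5 only library, to 549 when MC3 was left out. Cebpb and Cebpd were thus not called without an MS-5 only library, as no gene was. Cebpb was not called without MC1 or without MC2 either. The cause of these shifts was not tested. Whether the replicate numbers mark pairs could not be settled. Across genes, deviations from the group mean correlated at 0.53, -0.29 and -0.52 in the libraries numbered 1, 2 and 3. MO2 and MC3, which stand apart, correlated at 0.73. Deviations in a group of 3 sum to 0, so that these correlations depend on each other and cannot show or exclude pairs. The block gave 444 calls over all genes. Counts under 25 per library, as for Sp7, Lepr, Adipoq and the Bglap genes, limit what could be detected.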
